A study of Mus musculus with 8 samples.

Results

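The 10 genes described here encode the adhesion receptors by which T cells bind vessel walls, matrix and antigen-presenting cells: the integrin alpha subunits Itga4, Itgal, Itgae, Itgav and Itga6, the integrin beta subunits Itgb1, Itgb2 and Itgb7, the hyaluronan receptor Cd44, and Selplg, which encodes the selectin ligand PSGL-1. They were taken by name from the 19938 genes that had a probe set with a single gene symbol, by a rule that used no measured value. The choice was not blind, however: the genes and the related lists were chosen with earlier results of these data known. Each had 1 such probe set. The arrays measured RNA from mouse naive CD4 T cells, sorted and then stimulated through CD3 and CD28 for 24 hours in the presence of IL6, IL21 and blocking antibodies to IL-4, IFNg and TGFb. This culture was the same for all samples, which the labels call follicular helper T (Tfh) cells. Of the 8 samples, 4 came from wild-type mice (WT) and 4 from mice in which Bcl6, a transcriptional repressor needed for Tfh cells, was deleted conditionally in T cells (labelled Bcl6-/-, here KO). The labels name no Cre driver, strain or age, and do not say whether the 4 samples of a group are separate mice, so the p-values reflect only the spread among these arrays, part of which may be technical.

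An integrin is a pair of 1 alpha and 1 beta subunit, and the pair decides the ligand. Itgal and Itgb2 form LFA-1, which binds ICAMs and holds the T cell to the antigen-presenting cell. Itga4 pairs with Itgb1 to form VLA-4, the VCAM-1 receptor, and with Itgb7 to form the gut-homing receptor for MAdCAM-1. Integrins on resting T cells are mostly inactive, and signals from the T cell receptor and chemokine receptors open them through Rap1, talin and kindlin. Activated T cells carry more CD44, and PSGL-1 binds selectins only after it has been glycosylated.

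None of the 10 genes passed the test, a limma adjusted p under 0.05. Of the 9 that reached the expression filter, LFA-1 (Itgal and Itgb2), Itga6, Itga4, Selplg and Itgav had lower mean signals in the KO-labelled arrays, and Cd44, Itgb1 and Itgb7 had higher ones. The differences ran from -0.20 to 0.15 on the log2 scale, less than a 1.15-fold change. The groups did not overlap in 4 of the 9, with Itgal and Itga6 lower and Cd44 and Itgb1 higher. Among all 11926 tested genes, 1.32% passed (157, of which 77 were higher and 80 lower, or 48 and 30 after median centring of the arrays), and 10.8% did not overlap. An unadjusted p under 0.05 was reached by 5 of the 9 genes and by 16.6% of all tested genes. The median difference was -0.11 over the 9 genes and -0.02 over all tested genes.

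The arrays had similar medians, between 7.35 and 7.42, while their 40th percentiles ran from 6.91 in KO replicate 4 to 7.15 in KO replicate 1. KO replicate 1 stood apart: the median deviation from its group mean over all tested genes was 0.115 (log2), and 0.035 to 0.0725 in the 7 others. In all 9 tested genes KO replicate 1 was the highest or lowest KO-labelled value, in Cd44 tied with KO replicate 2. Without it, 5 of the 9 genes did not overlap (Itgal, Itgb1, Itga6, Cd44 and Selplg) and none passed, while 22.6% of all tested genes did not overlap and 782 passed. Bcl6 signal was 8.77 ± 0.123 in WT-labelled and 9.15 ± 0.0497 in KO-labelled arrays (log2, SD, n = 4; limma adjusted p = 0.0303), so it was higher under the KO label, a call kept in 3 of the 8 fits that left out 1 array (limma adjusted p up to 0.11) and lost with no filter (0.0595) and with the replicate block (0.0606). Its single probe set may or may not cover deleted exons, which cannot be read from the files, and directions are those of the labels. Pan-T-cell and CD4 genes fixed as markers were all above the filter (9 of 9, mean signal 12.3 to 12.5). So were 2 of 9 B cell, 2 of 14 myeloid and 2 of 10 NK cell markers. Among other T cell lists, 12 of 13 regulatory, 7 of 12 memory and effector and 5 of 6 CD8 T cell markers were above it. For platelet, endothelial and stromal, and erythroid markers the counts were 5 of 7, 5 of 10 and 1 of 2. Of all 19938 genes, 11926 were tested, so marker counts near that share say little about the presence of such cells.

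**Figure D1:**
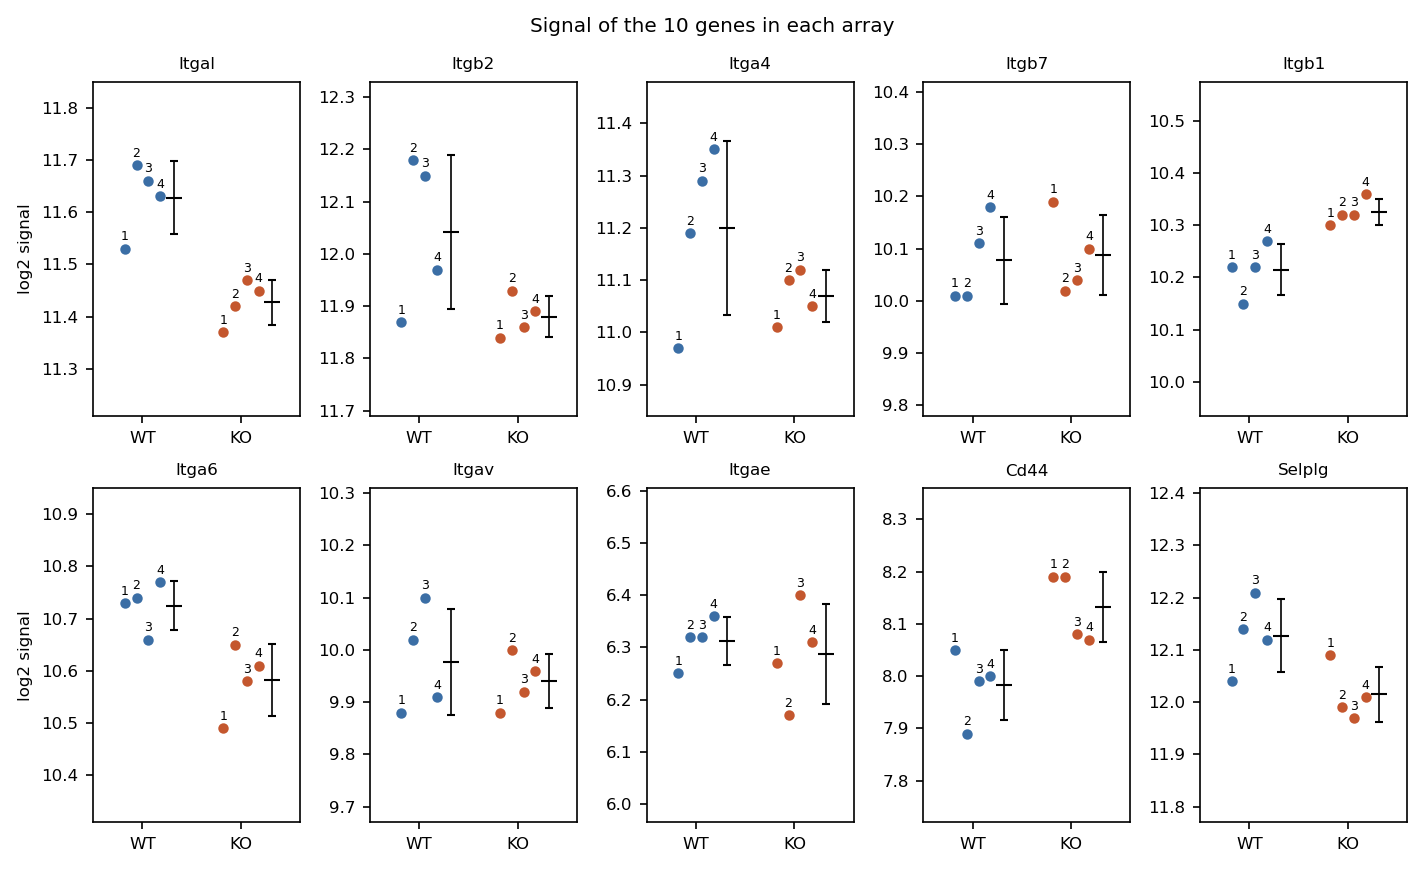
Log2 signal of the 10 genes in the 4 WT-labelled (blue) and 4 KO-labelled (orange) arrays; digits are replicate numbers, and black marks with bars show mean ± SD (n = 4). Each panel spans the same log2 range around its own gene. The 2 groups are separate for Itgal, Itgb1, Itga6 and Cd44, and for Itga4 and Itgb2 WT replicate 1 lies among the KO-labelled arrays or below them.

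Itgal, the alpha subunit of LFA-1, had the smallest p of the 10 genes. Its log2 signal was 11.53, 11.69, 11.66 and 11.63 in WT replicates 1 to 4 and 11.37, 11.42, 11.47 and 11.45 in KO replicates 1 to 4. All 4 KO-labelled values lay below all WT-labelled values, and WT replicate 1 was nearest to them. The means were 11.6 ± 0.0695 and 11.4 ± 0.0435 (SD, n = 4), a difference of -0.20 ± 0.0499 (SE; 95% interval -0.31 to -0.09, limma adjusted p = 0.0841). The exact permutation p was 0.0286, the lowest possible with 4 against 4 arrays. It passed with quantile normalization repeated (limma adjusted p = 0.0483), with an intensity trend and robust prior (0.0346) and with array weights (0.0109), and in none of the 8 fits that left out 1 array (0.0552 to 0.273). In a bulk sample, fewer cells that carry a transcript and less of it per cell cannot be told apart.

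Itgb2, the beta subunit shared by LFA-1 and the myeloid integrins, varied more within the WT-labelled arrays. On the log2 scale it stood at 11.87, 12.18, 12.15 and 11.97 in WT replicates 1 to 4 and 11.84, 11.93, 11.86 and 11.89 in KO replicates 1 to 4. WT replicates 2 and 3 were high, while WT replicate 1 lay among the KO-labelled arrays, so the groups overlapped. The difference was -0.16 ± 0.0709 (SE; 95% interval -0.32 to -0.00424, limma adjusted p = 0.288; exact permutation p = 0.0857). It was -0.22 without WT replicate 1 and -0.12 without WT replicate 2, and passed in neither.

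Itga4, the alpha subunit of VLA-4 and of the gut-homing integrin, followed a similar pattern. Signals (log2) were 10.97, 11.19, 11.29 and 11.35 in WT replicates 1 to 4 and 11.01, 11.10, 11.12 and 11.05 in KO replicates 1 to 4. WT replicate 1 was the lowest of all 8 arrays and the other 3 WT-labelled values lay above every KO-labelled one. The difference was -0.13 ± 0.0780 (SE; 95% interval -0.30 to 0.04, limma adjusted p = 0.463), and -0.21 without WT replicate 1. WT replicate 1 was the lowest WT-labelled array, or tied for it, in 6 of the 9 tested genes.

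Itgb1, the beta subunit with the widest choice of alpha partners and the chain of most matrix-binding integrins, was higher in every KO-labelled array. Its log2 signal was 10.22, 10.15, 10.22 and 10.27 in WT replicates 1 to 4 and 10.30, 10.32, 10.32 and 10.36 in KO replicates 1 to 4. The groups did not overlap, and the gap between the nearest values was small beside the WT-labelled range. The difference was 0.11 ± 0.0440 (SE; 95% interval 0.01 to 0.21, limma adjusted p = 0.246; exact permutation p = 0.0286). Itgb7, the beta subunit of the gut-homing and epithelium-binding integrins, did not follow it. Itgb7 values (log2) were 10.01, 10.01, 10.11 and 10.18 in WT replicates 1 to 4 and 10.19, 10.02, 10.04 and 10.10 in KO replicates 1 to 4. The 2 groups covered nearly the same range, with a difference of 0.01 ± 0.0584 (SE; 95% interval -0.12 to 0.14, limma adjusted p = 0.964), whose sign turned without WT replicate 1 or 2 or KO replicate 1.

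Itga6, the laminin receptor subunit, was lower in every KO-labelled array. Its log2 signal was 10.73, 10.74, 10.66 and 10.77 in WT replicates 1 to 4 and 10.49, 10.65, 10.58 and 10.61 in KO replicates 1 to 4. The nearest values, 10.66 in WT replicate 3 and 10.65 in KO replicate 2, differed by the rounding step of the file. The difference was -0.14 ± 0.05 (SE; 95% interval -0.25 to -0.03, limma adjusted p = 0.193; exact permutation p = 0.0286). Itgav, the alpha subunit of RGD-binding integrins that can activate latent TGF beta, had the same lowest value, 9.88, in WT replicate 1 and KO replicate 1. Its other values (log2) were 10.02, 10.10 and 9.91 in WT replicates 2 to 4 and 10, 9.92 and 9.96 in KO replicates 2 to 4. The KO-labelled values lay within the WT-labelled range, and the difference was -0.04 ± 0.0587 (SE; 95% interval -0.17 to 0.09, limma adjusted p = 0.835). Itgae (CD103), the alpha subunit that binds E-cadherin on epithelial cells, was under the filter in all 8 arrays. It read 6.25, 6.32, 6.32 and 6.36 in WT replicates 1 to 4 and 6.27, 6.17, 6.40 and 6.31 in KO replicates 1 to 4, all below the array thresholds of 6.91 to 7.15 (exact permutation p = 0.686).

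Cd44 was higher in every KO-labelled array. Its log2 signal was 8.05, 7.89, 7.99 and 8.00 in WT replicates 1 to 4 and 8.19, 8.19, 8.08 and 8.07 in KO replicates 1 to 4. The nearest values, 8.05 and 8.07, came from WT replicate 1 and KO replicate 4. The difference was 0.15 ± 0.0532 (SE; 95% interval 0.03 to 0.27, limma adjusted p = 0.196; exact permutation p = 0.0286), and it stayed between 0.12 and 0.17 with each array left out. The transcript has many splice forms, and 1 probe set gives no account of them.

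Selplg signal was 12.04, 12.14, 12.21 and 12.12 in WT replicates 1 to 4 and 12.09, 11.99, 11.97 and 12.01 in KO replicates 1 to 4. The groups crossed at WT replicate 1, the lowest of its group, and KO replicate 1, the highest of its own. The difference was -0.11 ± 0.0513 (SE; 95% interval -0.23 to 0.00212, limma adjusted p = 0.31), and without KO replicate 1 the groups did not overlap.

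**Figure D2:**
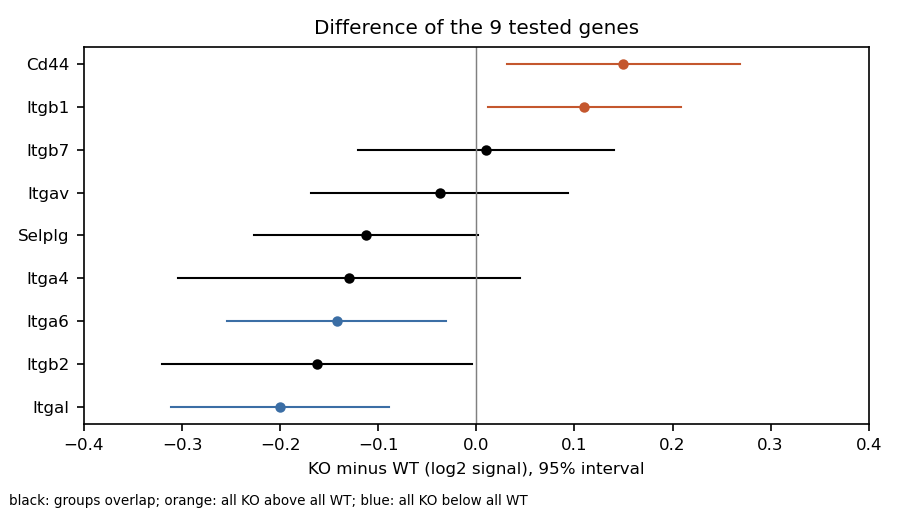
Difference KO minus WT on the log2 scale for the 9 tested genes, with limma's 95% interval (4 arrays per group). Colour marks the 4 genes whose groups do not overlap; the intervals of Itgal, Itgb2, Itga6, Itgb1 and Cd44 lie off 0 before adjustment, and no gene passed after adjustment over 11926 genes.

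With limma's array weights, which were 0.176 for KO replicate 1 and 0.617 to 3.32 for the other 7 arrays, 6 of the 9 genes passed: Itgal, Itgb2, Itga6 and Selplg as lower, and Itgb1 and Cd44 as higher. The same setting called 16.6% of all tested genes, against 1.32% without weights.

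**Figure D3:**
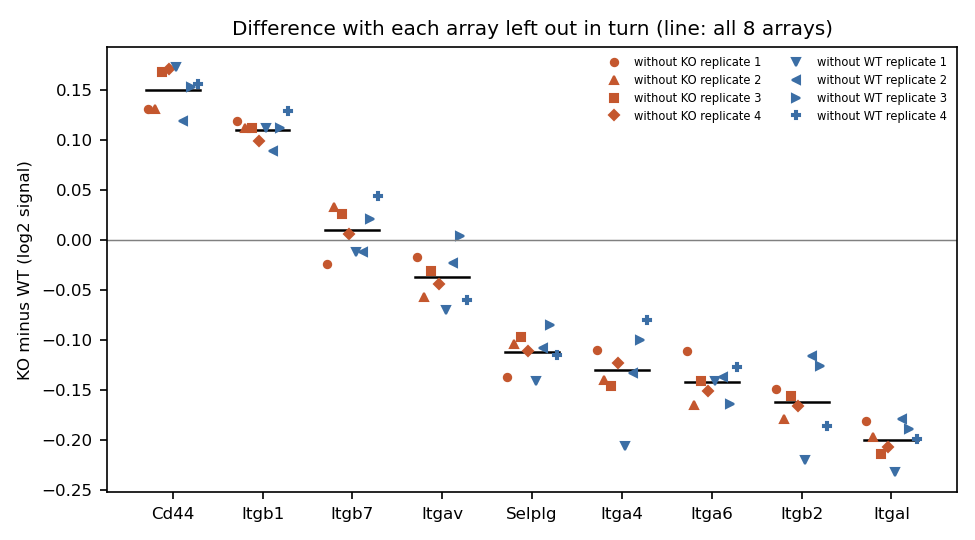
Difference KO minus WT (log2 signal) of each tested gene with all 8 arrays (black line) and with each array left out in turn (symbols; orange for a KO-labelled and blue for a WT-labelled array left out). All genes but Itgb7 and Itgav keep their sign, and Itga4 moves most, from -0.21 without WT replicate 1 to -0.08 without WT replicate 4.

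RefSeq's promoter table (GRCm38.p6) held 5 of the 10 genes. The 300 bases around the start of the pair whose signals were higher without overlap, Cd44 and Itgb1, are shown to set their letters beside a motif that Bcl6 can bind. The Bcl6 motif searched for was the core TTCNNNGAA. Capitals mark a different motif, the Sp1 and KLF GC box GGGCGG, searched on both strands.

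Cd44, chr2:102901616-102901915, minus strand: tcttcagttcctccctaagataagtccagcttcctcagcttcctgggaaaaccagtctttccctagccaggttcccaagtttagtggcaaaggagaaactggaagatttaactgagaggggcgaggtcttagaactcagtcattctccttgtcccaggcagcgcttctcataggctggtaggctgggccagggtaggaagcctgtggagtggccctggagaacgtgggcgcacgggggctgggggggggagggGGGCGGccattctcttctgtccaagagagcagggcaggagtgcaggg

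Itgb1, chr8:128685404-128685703, plus strand: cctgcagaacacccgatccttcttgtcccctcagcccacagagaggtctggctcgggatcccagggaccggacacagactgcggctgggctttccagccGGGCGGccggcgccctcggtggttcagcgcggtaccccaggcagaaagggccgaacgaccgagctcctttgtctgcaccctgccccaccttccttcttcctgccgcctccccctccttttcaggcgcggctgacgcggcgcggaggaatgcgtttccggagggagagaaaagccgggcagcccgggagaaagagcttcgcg

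Each holds 1 GC box, which begins 3 bases after the start in Cd44 and 151 bases before it in Itgb1. A GC box was found in 35.7% of the 32851 promoters in the table. The palindromic core TTCNNNGAA, shared by STAT and Bcl6 motifs, was not in either window, nor in the windows of Itga4, Itgav and Itgb7, and 8.3% of all promoters held it. Itgb1 had 67.3% and Cd44 58.0% G and C bases, against a median of 52.7%.

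Subunits of a pair were compared within each array, as the log2 signal of the beta probe set minus that of the alpha probe set, which shows unequal change and not relative levels. The Itgb1 minus Itga6 value was -0.51, -0.59, -0.44 and -0.50 in WT replicates 1 to 4 and -0.19, -0.33, -0.26 and -0.25 in KO replicates 1 to 4. The groups were separate, with a shift of 0.25 toward Itgb1 (exact permutation p = 0.0286, adjusted over 6 pairs p = 0.171). This separation was fixed by the single genes, since Itgb1 was higher and Itga6 lower without overlap, and it adds no further result. Several of the 6 pairs share Itgb1 and are not independent. The Itgb1 minus Itga4 value, of the VLA-4 pair, was -0.75 in WT replicate 1 and -1.08 to -1.04 in the other 3 WT-labelled arrays, against -0.80 to -0.69 in the KO-labelled arrays. Only WT replicate 1 overlapped with the KO-labelled group, and the shift was 0.24 (exact permutation p = 0.0857, adjusted p = 0.171). The Itgb1 and Itgav pair shifted by 0.15 (adjusted exact permutation p = 0.171) and the Itgb7 and Itga4 pair by 0.14 (0.257). For LFA-1 the groups overlapped: Itgb2 minus Itgal was 0.41 ± 0.0866 in WT-labelled and 0.45 ± 0.0506 in KO-labelled arrays (SD, n = 4; adjusted exact permutation p = 0.629). Itgb7 minus Itgae shifted by 0.04 (0.629), but Itgae was under the filter in all arrays, so this value says little about the pair. No pair passed.

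**Figure D4:**
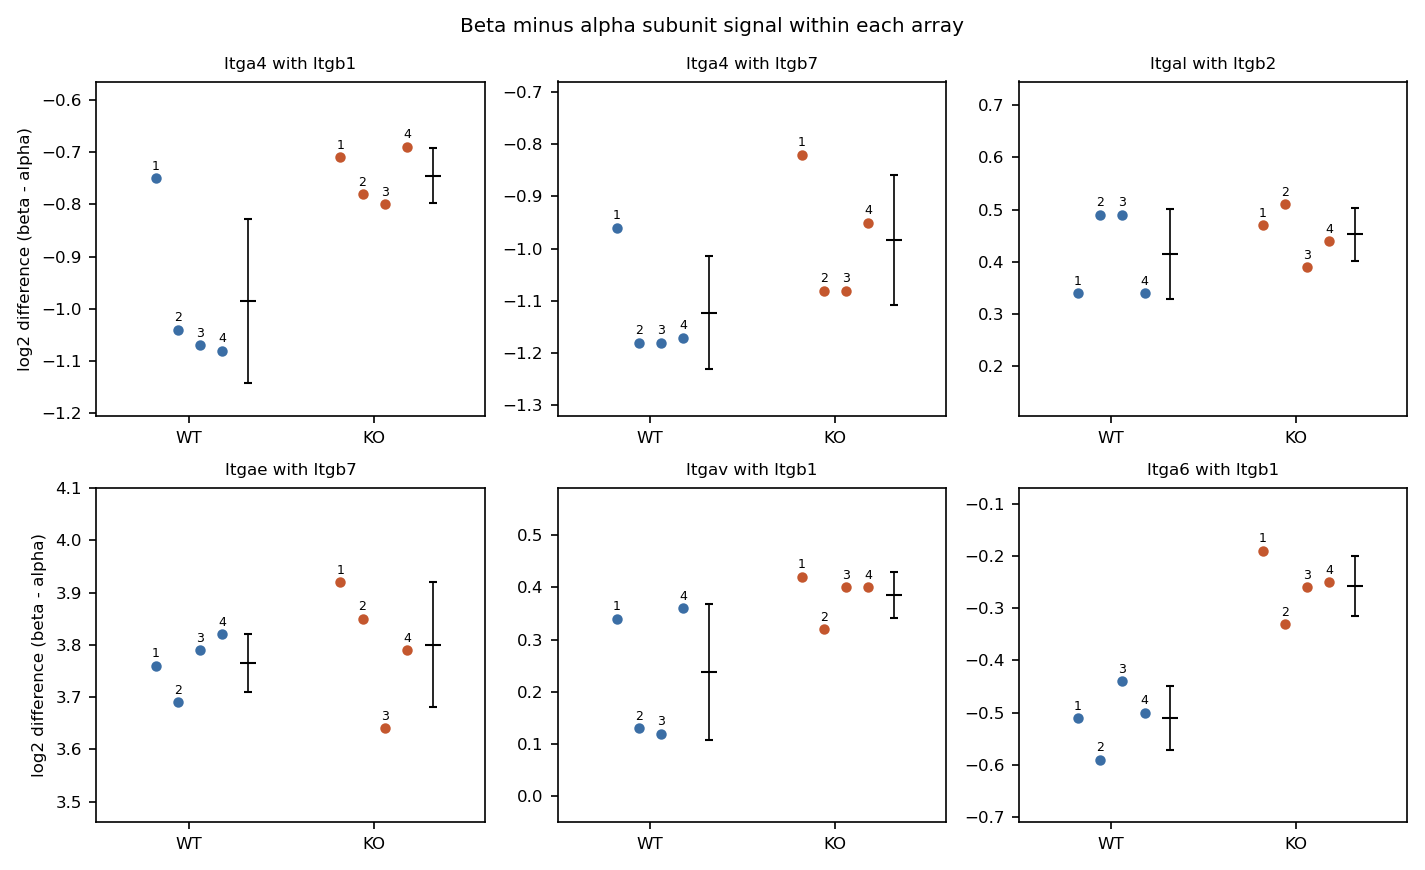
Log2 signal of the beta subunit minus that of the alpha subunit within each array for 6 integrin pairs, WT-labelled (blue) and KO-labelled (orange); digits are replicate numbers and black marks mean ± SD (n = 4). Itgae is under the expression filter in all arrays. Only the Itga6 and Itgb1 pair has separate groups, -0.59 to -0.44 against -0.33 to -0.19. This follows from Itgb1 being higher and Itga6 lower without overlap.

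Among the remaining integrin subunits, 11 of 19 passed the filter and none passed limma's test (1 had an unadjusted p under 0.05, as did 16.6% of all tested genes), and in none of these 11 were the groups separate. Under the filter, Itgb5, named after its values were seen, had separate groups (6.20 to 6.30 in WT-labelled and 6.35 to 6.53 in KO-labelled arrays, a difference of 0.17, exact permutation p = 0.0286), as had 2.26% of the genes under the filter. Itgb8, the partner of Itgav in TGF beta activation, had the smallest p of the 11 tested, 7.73 ± 0.192 in WT-labelled and 7.44 ± 0.229 in KO-labelled arrays (log2, SD, n = 4; limma adjusted p = 0.281). Itga9, a subunit related to Itga4, had the largest positive difference of the 11, 0.16 ± 0.145 (SE; limma adjusted p = 0.66). Their median difference was -0.03. Itgam and Itgax, the myeloid partners of Itgb2, were under the filter.

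Of 35 genes for the control of integrin activation and the link to actin, 30 were tested, and none passed with limma. This list, like the others, was chosen with earlier results of these data known. An unadjusted p under 0.05 was reached by 12 of the 30 (16.6% of all tested genes). A negative difference was found in 26 of the 30, against 57.9% of all tested genes, the median was -0.10 against -0.02, and in 10 (33.3%, against 10.8% of all tested genes) every KO-labelled value lay below every WT-labelled one. Rapgef1, an exchange factor that activates Rap1, had the smallest p: its log2 signal was 10.36, 10.42, 10.49 and 10.38 in WT replicates 1 to 4 and 10.20, 10.27, 10.18 and 10.19 in KO replicates 1 to 4. The difference was -0.20 ± 0.0472 (SE; limma adjusted p = 0.0723). Rapgef1 has 2 probe sets, and with these averaged its difference was -0.16 ± 0.0848 (SE; limma adjusted p = 0.379). The other 9 of these genes, and Fermt3, are named after their values were seen. Tln1, the talin that binds the beta tail, stood at 11.23 to 11.30 in WT-labelled and 11.10 to 11.13 in KO-labelled arrays, a difference of -0.15 with small spread in both groups. Skap1, an adaptor between the T cell receptor and Rap1, and Flna, the filamin that crosslinks actin and also binds beta tails, differed by -0.19 and -0.14. The remaining 6 were Vasp, Ptk2b, Actn1, Rassf5, Stk4 and Sipa1, with differences from -0.15 to -0.09. Rap1b, the small GTPase itself, had the largest positive difference of the 30, 0.07 ± 0.0448 (SE; limma adjusted p = 0.519), and the kindlin Fermt3 differed by -0.03. Without KO replicate 1, Rapgef1 (limma adjusted p = 0.0406), Tln1 (0.0458) and Skap1 (0.0385) passed, and no other array left out gave a call in this list. That fit called 782 of all 11926 tested genes, so 3 calls among 30 are not particular to this list.

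**Figure D5:**
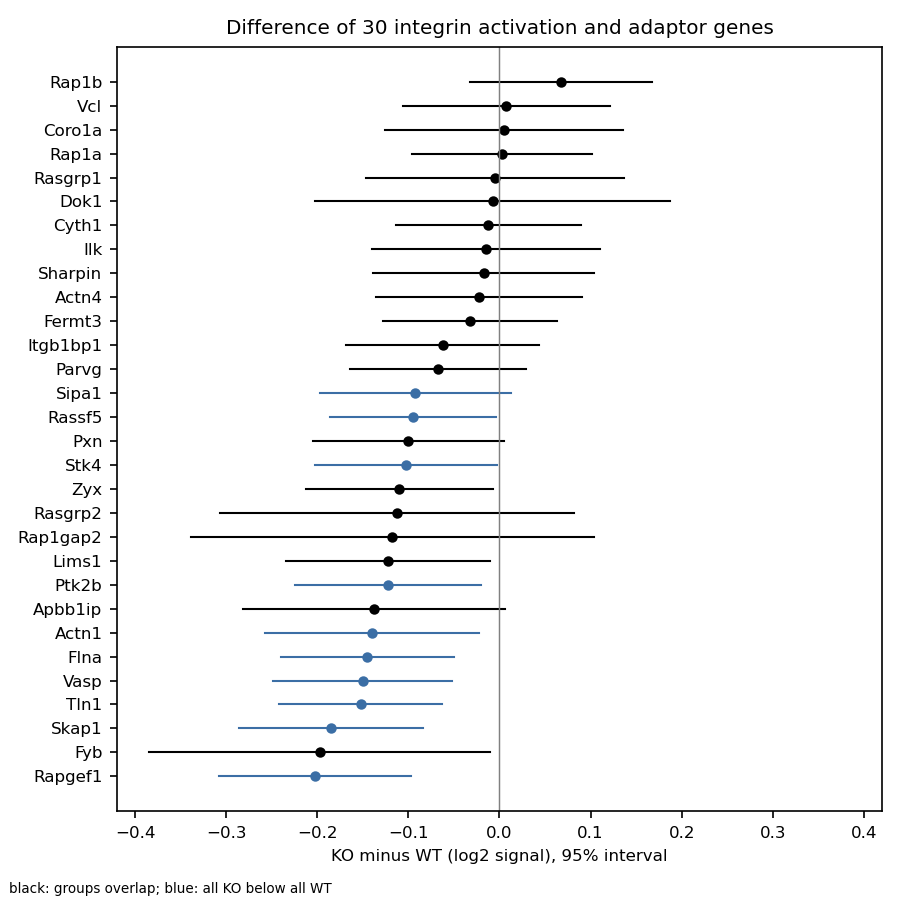
Difference KO minus WT on the log2 scale with limma's 95% interval for 30 tested genes of integrin activation and actin linkage (4 arrays per group). The 10 genes in blue have every KO-labelled value below every WT-labelled one, and 26 of the 30 points lie below 0.

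Of 31 genes that build selectin ligands on PSGL-1 and other glycoproteins, 27 were tested and 1 passed (1.32% of all tested genes did). An unadjusted p under 0.05 was reached by 5 of the 27 (16.6% of all tested genes). The groups did not overlap in 3 (10.8% of all tested genes), and 10 differences were positive and 17 negative. St3gal6, a sialyltransferase of selectin ligand synthesis, rose from 9.71, 9.5, 9.30 and 9.42 in WT replicates 1 to 4 to 9.84, 9.94, 9.90 and 10.02 in KO replicates 1 to 4 (log2). The groups did not overlap and the difference was 0.44 ± 0.0829 (SE; limma adjusted p = 0.0423). The call was lost without any 1 of 6 arrays (limma adjusted p up to 0.143), kept without WT replicate 1 and without KO replicate 1, and lost with no filter or with the replicate block. Of the same family and named after their values were seen, St3gal1 (-0.11) and St3gal2 (-0.145) were lower without overlap, and St3gal4 differed by -0.0075. The lowest difference of the 27 belonged to B3gnt2, a poly-N-acetyllactosamine synthase, at -0.15 ± 0.0651 (SE; limma adjusted p = 0.276). Fut7, the fucosyltransferase that completes the selectin ligand, differed by -0.01 (limma adjusted p = 0.958), and was named after its values were seen. The median difference of the list was -0.02. Gcnt1, the core 2 branching enzyme that PSGL-1 needs for P-selectin binding, was under the filter in all arrays and was picked out after its values were seen. Its signal was 5.85 to 5.97 in WT-labelled and 6.14 to 6.62 in KO-labelled arrays, a difference of 0.47 with no overlap (exact permutation p = 0.0286). Among genes under the filter, 2.26% had groups without overlap.

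Of 26 hyaluronan and Cd44 partner genes, 16 were tested and Cemip2 passed (1.32% of all tested genes did). An unadjusted p under 0.05 was reached by 5 of the 16 (16.6% of all tested genes). Cemip2, a cell-surface hyaluronidase, fell from 8.59, 8.5, 8.51 and 8.65 in WT replicates 1 to 4 to 8.13, 7.80, 7.96 and 7.83 in KO replicates 1 to 4 (log2). KO replicate 1 was nearest to the WT-labelled arrays, and the call held with each array left out (limma adjusted p at most 0.0335). The largest positive difference of the 16 was in Hmmr, a hyaluronan-binding protein of the mitotic spindle, at 0.34 ± 0.127 (SE; limma adjusted p = 0.215). The list's median was -0.02.

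Of 23 ligands and lateral partners of the receptors, 17 were tested and none passed with limma, while 5 had an unadjusted p under 0.05 (16.6% of all tested genes did). Lrrc32, the GARP protein that presents latent TGF beta to integrins, stood at 8.45, 8.37, 8.87 and 7.72 in WT replicates 1 to 4 and at 7.42 to 7.46 in the KO-labelled arrays. The groups did not overlap, and the difference was -0.92 ± 0.190 (SE; limma adjusted p = 0.0514). It passed without KO replicate 1 and without WT replicate 4. Cd226, a receptor that associates with LFA-1, had the largest positive difference of the 17, 0.34 ± 0.111 (SE; limma adjusted p = 0.166). The median of the list was 0.01.

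Markers of cells that a naive CD4 sort could also hold differed in both directions. Of 12 tested regulatory T cell genes, 6 had higher and 6 lower mean signals in the KO-labelled arrays (median difference 0.02), of 5 CD8 T cell genes 1 and 4 (-0.15), and of 7 memory and effector T cell genes 2 and 5 (-0.065). One of these genes passed, Gpr83 of the regulatory T cell list (-0.63, limma adjusted p = 0.00333). The mean log2 signal over the 6 CD8 T cell genes on the array was 8.97 to 9.24 in WT-labelled and 8.87 to 8.94 in KO-labelled arrays, over 13 regulatory T cell genes 9.70 to 9.87 and 9.61 to 9.65, and over 12 memory and effector genes 7.96 to 8.24 and 7.93 to 8.04. The groups overlapped for the memory and effector genes and did not for the other two lists. Single genes were picked after their values were seen. The defining genes Cd8a and Cd8b1 differed by -0.04 and 0.03 (exact permutation p = 0.83 each). The other tested genes of the CD8 T cell list were lower without overlap: Crtam by -0.54, Ctsw by -0.52 and Cst7 by -0.15. In 5 of the 12 tested regulatory T cell genes the groups did not overlap, against 10.8% of all tested genes. Lower without overlap, beside Gpr83, were Foxp3 (-0.68, limma adjusted p = 0.0648), Lrrc32 (-0.92, 0.0514) and Ikzf2 (-0.535, 0.114). In the opposite direction, Il2ra differed by 0.11 without overlap and Nrp1 by 0.43 with overlap. Among memory and effector genes, Nkg7 differed by -0.89 (limma adjusted p = 0.0947), Il2rb by 0.08 and Fasl by 0.06. Of the genes of this list under the filter, Ccr2 differed by 0.44 and S100a6 by -0.25, both without overlap. Cxcr6 (-0.195), S100a4 (-0.17) and Il18rap (-0.125), also under the filter, were lower with overlap. The part of these cells in the signals of Itgal and Itgb2 was not tested.

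The genes whose pattern over the 8 arrays was most like that of Itgb2 were Eomes, the T-box factor of memory and cytotoxic T cells (Pearson r = 0.992, Spearman rho = 1), Nr4a1, an immediate early gene of T cell receptor signalling (0.987 and 0.929), and Ppp1r16b (0.972 and 0.922). Eomes was high in WT replicates 2 and 3 (8.03 and 8.02), as Itgb2 was, and lower in WT replicates 1 and 4 (7.36 and 7.64). For Itgal they were Txlna (r = 0.981, rho = 0.952), Nfkbiz, a nuclear NF-kappa-B regulator (0.98 and 1), and Stat5a, the transcription factor downstream of IL-2 (0.978 and 0.905). For Cd44 they were Ak3, a mitochondrial adenylate kinase (r = 0.963, rho = 0.928), Ero1b (0.927 and 0.885) and the linker histone H1f5 (0.916 and 0.946). These are the highest of 11926 correlations over the same 8 arrays, are given as a description, and the arrays share both genotype and normalization. At r of 0.9 or more, 190 tested genes followed Itgal, 61 Itgb2 and 8 Cd44.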

How the data were processed

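RNA (100 ng per sample, labelled with biotin) was hybridised to 8 Affymetrix whole-transcript arrays. The authors deposited log2 signals per probe set, rounded to 2 decimals; RMA and Partek are named per the submitters' processing notes, with versions and steps not given in the sources used here. The medians of the arrays are nearly equal, which hides any shift in total RNA per cell, and the number of arrays limits the precision. Of 35556 probe sets, 21789 had 1 gene symbol in the platform annotation, 1621 several and 12146 were not listed; 21698 matched RefSeq's gene table. The probe set with the highest mean stood for a gene. Genes above the 40th percentile of these 21789 probe sets in at least 4 arrays were tested, and Bcl6 was kept. The contrast KO minus WT was fitted by limma 3.58.1 under R 4.3.3 (lmFit, eBayes, two-sided, no block), with Benjamini-Hochberg adjustment over all 11926 genes and a threshold of 0.05. The 95% intervals are limma's and unadjusted. Exact permutation tests over 4 against 4 arrays were two-sided. The steps were tested on simulated data, in which 14.1% of added log2 differences of 0.2 passed and 81.8% of those of 0.5. Differences of the size seen in the 10 genes would thus mostly be missed. The genes and lists were chosen with earlier results of these data known. Named genes were the 10 genes, Bcl6, and of each list those past the threshold (otherwise the smallest p) with the largest differences each way, and, for the 3 genes with the largest differences, the 3 genes of highest Pearson correlation. Alternatives were normalization, centring, filter, prior, array weights, averaged probe sets, the replicate block and arrays left out. The labels give no batch.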

Additional observations from a re-analysis of the deposited data

How the results depend on the processing

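The number of genes past the threshold depended strongly on the arrays. It was 157 over all 8 arrays and 31 to 782 with 1 array left out; 782 came without KO replicate 1, and 31, 32, 34 and 34 without WT replicate 2, KO replicate 2, WT replicate 3 and KO replicate 3. It was 322 with quantile normalization repeated, 78 with arrays centred on their medians, 58 with no filter, 354 with a trend and robust prior, 1980 with array weights and 443 with KO replicate 1 and WT replicate 3 both left out. The cause was not tested. Of the 10 adhesion genes, 1 passed with quantile normalization repeated, 1 with a trend and robust prior (Itgal in both) and 6 with array weights, and 0 passed in the other 7 settings and in all 8 fits that left out 1 array (0 to 0).

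The replicate numbers in the titles gave no clear pairing of the samples. Deviations of same-numbered arrays correlated at 0.01, 0.14, -0.17 and 0.31, and 2 of 4 WT-labelled arrays correlated best with their own number. These few values cannot decide whether same-numbered samples were prepared together, which the labels do not say. With the replicate block, 36 genes passed in all, 0 adhesion genes and 0 genes of selectin ligand glycosylation.

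For the related lists, leaving out 1 array gave 0 to 0 calls among the remaining integrin subunits, 0 to 3 for activation and adaptors, 0 to 2 for ligands and lateral partners, 0 to 2 for glycosylation and 1 to 4 for hyaluronan and Cd44 partners. Array weights gave 1 of 11, 8 of 30, 3 of 17, 3 of 27 and 4 of 16 tested genes, and called 16.6% of all tested genes. The trend and robust prior gave 3 for activation and adaptors and 1 for ligands and partners, as did quantile normalization and the 50th percentile filter for ligands and partners (1). Over all tested genes the calls were 354 with the trend and robust prior, 322 with quantile normalization and 229 with the 50th percentile filter. No filter gave 0 for glycosylation. With KO replicate 1 and WT replicate 3 both left out the calls were 2 for ligands and partners, 2 for glycosylation and 3 for hyaluronan and Cd44 partners. The count over all tested genes in this setting also rose, as given above.

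With 1 array left out, Itgb7 ranged from -0.0242 to 0.0442 and Itgav from -0.07 to 0.00333. The sign turned for genes and pairs near 0. Itgb7 stood at -0.0125 without WT replicate 1 and without WT replicate 2, -0.0242 without KO replicate 1 and -0.0133 with KO replicate 1 and WT replicate 3 both left out, and Itgav at 0.00333 without WT replicate 3 and 0.0233 with both left out. The Itgae and Itgb7 pair stood at -0.005 without KO replicate 1. With 1 array left out, the shifts of the 6 pairs were 0.208 to 0.318 (Itga4 with Itgb1), 0.0858 to 0.194 (Itga4 with Itgb7), 0.0125 to 0.0625 (Itgal with Itgb2), -0.005 to 0.0883 (Itgae with Itgb7), 0.108 to 0.188 (Itgav with Itgb1) and 0.226 to 0.277 (Itga6 with Itgb1), and none passed. The percentile over all probe sets, chosen after seeing the data, changed no call of the adhesion genes. Fits with 3 against 3 arrays cannot give an exact p under 0.1, nor sign changes over 4 pairs one under 0.125.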
